A study of Acartia tonsa with 26 samples.

Results

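Eggs of the calanoid copepod Acartia tonsa were examined for 5 genes of yolk and lipid metabolism, chosen by name from a table of 9502 genes of a de novo transcriptome assembly. A de novo assembly builds transcripts from the reads alone, so each gene is named by its assembly identifier and by the protein or domain it resembled. DN10000_c0_g1 matched vitellogenins of chicken and lamprey and carried the amino-terminal vitellogenin domain. DN19657_c0_g1 carried an apolipoprotein domain and no protein match. DN4455_c0_g1 matched the pancreatic triacylglycerol lipase of the coypu, a rodent, and carried a lipase domain. DN19962_c0_g1 matched a lipase of the nematode Caenorhabditis elegans (LIPL3_CAEEL) and DN19962_c0_g2 one of the fruit fly (LIP3_DROME). The identifiers of DN19962_c0_g1 and DN19962_c0_g2 name 1 assembly component, so they may share sequence and reads. A match points to a related protein without identifying the gene. A signal peptide, the leading stretch that sends a protein into the secretory path, was marked on DN10000_c0_g1 and DN4455_c0_g1, 2 of the 5, against 1427 genes or 15% of the table.

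RNA sequencing of whole eggs gave 26 libraries in 6 groups. Subitaneous eggs, which develop without a pause, were sampled as cleaving embryos of 4 to 16 cells (3 h, 5 libraries), during gastrulation (7 h, 5 libraries), during organogenesis (14 h, 4 libraries), while appendages formed (24 h, 4 libraries) and as nauplii about to hatch (42 h, 5 libraries). Quiescent eggs (n = 3) were 26 h old and still at gastrulation, after storage at 4 °C without oxygen. The labels give 1 culture regime for all groups, namely 60 L tanks in the dark at a salinity of 32 and 16.9 °C, with 0.3 µg of RNA per library. The study describes its replicates as technical, so every p below covers only the spread between such libraries and not that between cultures.

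Levels are the authors' normalized values, in which 1 read was worth 0.00894 to 0.0122, so a value of 1 stood for 81.8 to 112 reads. The values are not corrected for transcript length, so levels were compared between groups and never between genes. The reads in the table came to 4.3e+06 to 2.42e+07 per library; 3 reads, the limit that a count of 0 allows, correspond to 0.0268 to 0.0367. Changes were tested with limma on log2(value + 1) over 5201 genes with Benjamini-Hochberg adjustment, and the threshold for a call was an adjusted p of 0.05. This scale understates changes at low values. Every gene of the table had been selected by the authors on these samples, so a call is not independent evidence of a stage difference. Library 42 h D stood apart from the other 42 h libraries: its summed level of 51 cuticle genes was 106 against at least 832 in each of the others, and that of 114 myosin heavy chain genes was 359 against at least 1.45e+03. The main 42 h results are given with and without it. In whole eggs, fewer cells of a type and less RNA per cell cannot be told apart. From the sample-sheet numbers in the labels, 2 sets of libraries were inferred, one with the letters A and B and the other with C, D and E; means within each set stand beside the main results.

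Vitellogenin is the large lipid-carrying precursor of yolk protein, made by the mother and taken up by the growing oocyte. Apolipoproteins carry lipid in body fluids. The vitellogenin domain of DN10000_c0_g1 and the apolipoprotein domain of DN19657_c0_g1 are separate annotations, and neither gene carried both. Lipases cut fatty acids from stored neutral lipid. An egg that does not feed lives on such stores until the larva begins to eat. A vitellogenin domain also occurs in other large lipid transfer proteins, so the domain alone does not mark a yolk protein.

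The vitellogenin match DN10000_c0_g1 was highest at 24 h, when appendages form. Its value at 3 h was 0.892, 0.845, 1.29, 0.963 and 0.991 in libraries A to E. At 7 h it was 1.12, 1.23, 1.54, 1.40 and 1.59. At 14 h it was 1.69, 1.67, 1.75 and 2.39 in libraries A, B, C and E. These 3 stages together ran from 0.845 to 2.39, with only 14 h E above the rest of its group. At 24 h the value was 5.67, 4.82, 5.87 and 2.86 in libraries A to D, and the lowest of these lay above every library of the earlier stages. At 42 h it was 4.20, 1.32, 1.22, 0.218 and 1.51 in libraries A to E, so library A kept to the range seen at 24 h, and library D, with 20 reads of the gene, lay below every other library. The group means were 0.996 ± 0.174 (SD, n = 5) for 3 h, 1.38 ± 0.202 (n = 5) for 7 h, 1.87 ± 0.344 (n = 4) for 14 h, 4.80 ± 1.37 (n = 4) for 24 h and 1.69 ± 1.49 (n = 5) for 42 h.

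The rise from 14 h to 24 h was 2.56-fold in the means and 0.99 ± 0.30 (SE) on the log2 scale (limma, adjusted p = 0.0294), with no overlap between the groups. DN10000_c0_g1 was the 1 gene of the 5 to rise there, where 2.83% of all tested genes were higher and 9.61% lower at 24 h. The fall to 42 h was 2.84-fold and -1.23 ± 0.28 on the log2 scale (limma, adjusted p = 0.00126), and libraries overlapped through 42 h A and 24 h D. Without 42 h D the 42 h mean was 2.06 ± 1.43 (n = 4) and the log2 change -0.98 (adjusted p = 4.3e-04). It was again the 1 gene of the 5 to fall, against 44.9% of tested genes higher and 5.33% lower at 42 h. Within letters A and B the mean went from 1.68 at 14 h to 5.25 at 24 h and 2.76 at 42 h; within letters C, D and E it went from 2.07 to 4.36 and 0.982. edgeR on the recovered reads gave the rise to 24 h as 1.36 on the log2 scale and did not call it (adjusted p = 0.127). The call of that rise was also lost without any 1 of 14 h A, B or C or 24 h A, B or C (adjusted p up to 0.0958, log2 change 0.89 to 0.97). The fall to 42 h was not called when spread was taken from these groups alone (adjusted p = 0.139).

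The smaller steps before 24 h depended on the scaling. The change from 7 h to 14 h was 0.27 ± 0.28 on the log2 scale (limma, adjusted p = 0.506), but it turned to -0.55 after rescaling by median ratios (adjusted p = 0.0104) and to -0.63 after quantile normalization (adjusted p = 0.0154). Over all tested genes the median log2 change was 0.41 from 7 h to 14 h and 0.66 from 24 h to 42 h on the deposited scale, and 0.06 and 0.18 after median-ratio rescaling. The means of DN10000_c0_g1 after that rescaling were 2.47 (7 h), 1.38 (14 h), 3.24 (24 h) and 0.575 (42 h), so its highest level stayed at 24 h.

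**Figure D1:**
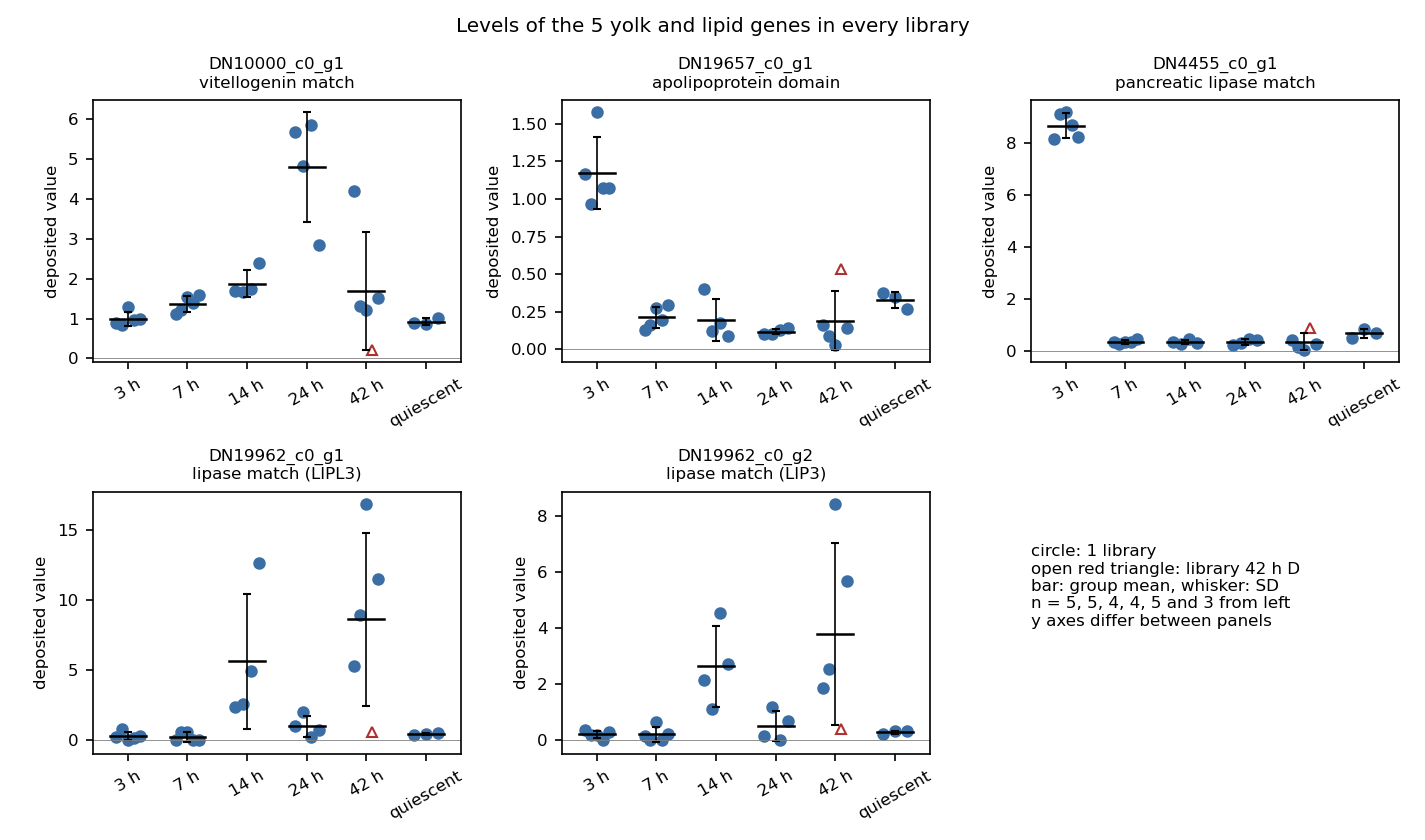
Deposited normalized value (y axis, scale differing between panels) of each gene in every library of 6 groups (x axis). Circles are libraries, the open triangle is 42 h D, bars are means and whiskers SD. The vitellogenin match peaks at 24 h (4.80 ± 1.37), also after median-ratio rescaling; the apolipoprotein-domain gene and DN4455_c0_g1 are high at 3 h alone (1.17 and 8.65); DN19962_c0_g1 and DN19962_c0_g2 are high at 14 h (5.64 and 2.63) and 42 h (8.65 and 3.77).

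The apolipoprotein-domain gene DN19657_c0_g1 had its highest level in the cleaving egg. At 3 h its value was 1.17, 0.969, 1.58, 1.07 and 1.08 in libraries A to E, from 94 to 137 reads. At 7 h it was 0.13, 0.164, 0.274, 0.192 and 0.297, from 13 to 28 reads. No 3 h library came down to the level of any later one. The mean fell from 1.17 ± 0.238 (n = 5) to 0.211 ± 0.0716 (n = 5), which is 5.54-fold, or -0.84 ± 0.12 on the log2 scale (limma, adjusted p = 1.1e-05). Within letters A and B the means were 1.07 and 0.147, and within letters C, D and E they were 1.24 and 0.254. After 7 h the means were 0.197 ± 0.141 (n = 4) at 14 h, 0.117 ± 0.0186 (n = 4) at 24 h and 0.191 ± 0.198 (n = 5) at 42 h, with neighbouring groups overlapping. The 42 h mean was 0.106 ± 0.0592 (n = 4) without library D, where the gene reached 0.533. The gene entered the test only because 4 of its 3 h libraries were at 1 or above, as did DN4455_c0_g1 through all 5.

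The lipase match DN4455_c0_g1 fell further over the same interval than any other of the 5 genes. At 3 h its value was 8.14, 9.09, 9.17, 8.65 and 8.20 in libraries A to E, from 786 to 882 reads. At 7 h it was 0.359, 0.256, 0.348, 0.329 and 0.456, from 25 to 43 reads. The groups were far apart and each was narrow. The mean went from 8.65 ± 0.481 (n = 5) to 0.350 ± 0.0718 (n = 5), a 24.7-fold fall and -2.84 ± 0.17 on the log2 scale (limma, adjusted p = 2.6e-12). The means within letters A and B were 8.61 and 0.307, and those within letters C, D and E were 8.67 and 0.378. From there it stayed low, with means of 0.328 ± 0.0801 (n = 4) at 14 h, 0.348 ± 0.103 (n = 4) at 24 h and 0.353 ± 0.328 (n = 5) at 42 h. At 42 h library D held 0.881 and the others 0.0520 to 0.435, and the mean without D was 0.221 ± 0.164 (n = 4). So 2 of the 5 genes fell between 3 h and 7 h, where 11.1% of all tested genes were lower and 0.0961% higher at 7 h. Both had passed the filter through 3 h libraries alone, so this count is not support for a fall after 3 h. Both falls were called under every alternative tried.

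The lipase matches DN19962_c0_g1 and DN19962_c0_g2 rose at 14 h, were lower at 24 h and were high again at 42 h. DN19962_c0_g1 was at 0.225, 0.825, 0, 0.167 and 0.355 in the 3 h libraries A to E, and at 0, 0.604, 0.601, 0 and 0 in those of 7 h. At 14 h it was 2.39, 2.57, 4.93 and 12.7 in libraries A, B, C and E. At 24 h it was 1.03, 2.03, 0.232 and 0.722 in libraries A to D. At 42 h it was 5.33, 8.95, 16.9, 0.587 and 11.5 in libraries A to E. Thus 3 of the 7 h libraries held no read of it, every 14 h library lay above all libraries of 3 h, 7 h and 24 h, and at 42 h library D alone was below the 14 h range.

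DN19962_c0_g1 averaged 0.241 ± 0.330 (n = 5) at 7 h and 5.64 ± 4.82 (n = 4) at 14 h, a rise of 2.21 ± 0.49 on the log2 scale (limma, adjusted p = 0.00138). DN19962_c0_g2 was at 0.343, 0.165, 0.184, 0 and 0.271 in the 3 h libraries and at 0.120, 0, 0.633, 0 and 0.202 in those of 7 h. At 14 h it was 2.16, 1.10, 4.55 and 2.71 in libraries A, B, C and E. Its rise was again without overlap, from 0.191 ± 0.261 (n = 5) to 2.63 ± 1.44 (n = 4), or 1.55 ± 0.38 on the log2 scale (limma, adjusted p = 0.00366). These were 2 of the 5 genes, both of 1 assembly component, where 21.1% of tested genes were higher and 2.48% lower at 14 h. Both rises exceeded the median log2 change of all tested genes, 0.41, and were called under every alternative tried. Both genes had passed the filter only through libraries of 14 h, 24 h and 42 h, and none of 7 h. Their calls and counts are therefore not independent support. Within letters A and B, DN19962_c0_g1 went from 0.302 to 2.48 and DN19962_c0_g2 from 0.0600 to 1.63; within letters C, D and E they went from 0.20 to 8.80 and from 0.278 to 3.63.

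At 24 h DN19962_c0_g1 averaged 1.0 ± 0.760 (n = 4), a change from 14 h of -1.56 ± 0.52 on the log2 scale (limma, adjusted p = 0.0473). DN19962_c0_g2 held 0.145, 1.18, 0 and 0.680 in the 24 h libraries and averaged 0.502 ± 0.540, a change of -1.25 ± 0.40 (adjusted p = 0.0391). They were 2 of the 5 genes to fall, beside the 9.61% of all tested genes that were lower at 24 h. For DN19962_c0_g1 the call was lost when any of 19 of the 26 libraries was left out (adjusted p up to 0.189, without 14 h E). For DN19962_c0_g2 it was lost without any 1 of 14 h A, C or E or 24 h A, C or D (adjusted p up to 0.151). edgeR called neither fall (adjusted p = 0.283 and 0.289).

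At 42 h DN19962_c0_g1 averaged 8.65 ± 6.17 (n = 5) and had risen by 1.96 ± 0.49 on the log2 scale (limma, adjusted p = 0.00216). DN19962_c0_g2 was at 1.84, 2.53, 8.45, 0.370 and 5.67 in libraries A to E, averaged 3.77 ± 3.25 and had risen by 1.43 ± 0.38 (adjusted p = 0.00338). Both were again lowest in library D. Without it their means were 10.7 ± 4.85 and 4.62 ± 3.05 (n = 4) and their log2 changes 2.52 (adjusted p = 2.0e-06) and 1.81 (adjusted p = 2.1e-05). The 2 rises stand beside the 44.9% of all tested genes that were higher at 42 h and a median log2 change of 0.66. After median-ratio rescaling the rises were 1.04 (adjusted p = 0.011) and 0.61 (adjusted p = 0.0484), and the 42 h means, 2.45 and 1.09, then lay below those of 14 h, 3.69 and 1.90. edgeR gave 3.11 and 2.91 and called neither (adjusted p = 0.0705 and 0.0779).

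The reads of the component were not split between its 2 genes in 1 fixed ratio. Of the reads of both, DN19962_c0_g1 held 52.0 to 82.4% at 14 h (388 to 1719 reads of both per library), 51.5 to 100% at 24 h (24 to 348 reads), 61.4 to 78.0% at 42 h (88 to 2449 reads) and 60.7 to 65.1% in quiescent eggs (63 to 89 reads). At 14 h and 24 h the shares differed between libraries beyond counting error, since that of 14 h C was 52.0% (exact Clopper-Pearson 95% interval 48.9 to 55.1%) and that of 14 h E 82.4% (80.5 to 84.1%), while that of 24 h D was 51.5% (42.7 to 60.3%) and that of 24 h A 87.6% (80.6 to 92.7%). Such intervals cover counting error only. At 3 h and 7 h the share ran from 0 to 100%, on 0 to 117 reads of both. It was 83.3% (74.4 to 90.2%) in 3 h B, 48.7% (39.4 to 58.1%) in 7 h C and 100% (93.9 to 100%) in 7 h B, so these libraries too differed beyond counting error, and 7 h D held no read of either gene.

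**Figure D2:**
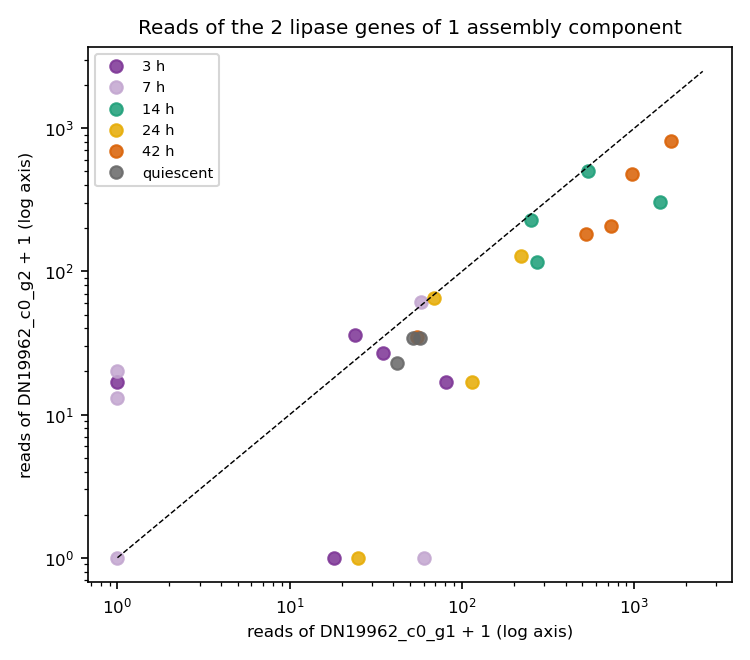
Reads of DN19962_c0_g2 (y axis) against reads of DN19962_c0_g1 (x axis), both plus 1 and on log axes; each point is 1 library, coloured by group, and the dashed line marks equal reads. The 14 h libraries and all 42 h libraries except D lie at the upper right, below the line (DN19962_c0_g1 holds 52.0 to 82.4% at 14 h), 42 h D lies beside the quiescent libraries (54 and 34 reads), and the 3 h and 7 h libraries scatter at low counts.

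Quiescent eggs were compared with the subitaneous stages on either side of their arrest, and with 3 h eggs. DN10000_c0_g1 was at 0.898, 0.863 and 1.01 in quiescent libraries A, C and D, a mean of 0.925 ± 0.0790 (n = 3). All 3 lay below every 7 h library, the lowest of which was 1.12, and within the range of the 3 h libraries. DN19657_c0_g1 was at 0.374, 0.345 and 0.269, a mean of 0.329 ± 0.0542. DN4455_c0_g1 was at 0.505, 0.836 and 0.682, a mean of 0.674 ± 0.166. The 3 values of DN4455_c0_g1 lay above every 7 h library, the highest of which was 0.456, and far below every 3 h library. DN19962_c0_g1 averaged 0.450 ± 0.0611 and DN19962_c0_g2 0.267 ± 0.0532, within the range of the 7 h libraries.

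Against 7 h, 0 of the 5 genes were called by limma or by edgeR, and the smallest unadjusted limma p, that of DN4455_c0_g1, was 0.125 for a log2 difference of 0.31 ± 0.19. In this comparison limma called 0.288% of tested genes higher and 0% lower in quiescent eggs, with 359 genes at an unadjusted p under 0.05, and edgeR called 176 genes. With 3 quiescent libraries a p that misses the threshold does not show that levels were the same. Against 3 h, DN4455_c0_g1 was 12.8-fold lower in the means, a log2 difference of -2.53 ± 0.19 (limma, adjusted p = 6.2e-10), and DN19657_c0_g1 was 3.56-fold lower, a difference of -0.70 ± 0.14 (adjusted p = 0.00122). edgeR did not call that of DN19657_c0_g1 (adjusted p = 0.185). The pair were 2 of the 5 genes, where 5.83% of tested genes were lower and 0.442% higher in quiescent eggs. Both had passed the filter through 3 h libraries alone. Against 14 h, DN19962_c0_g1 was lower, with a log2 difference of -1.95 ± 0.56 (limma, adjusted p = 0.0168), as was DN19962_c0_g2, with -1.43 ± 0.43 (adjusted p = 0.0233). They were again 2 of the 5, beside 11.9% of tested genes lower and 5.08% higher. Both had reached 1 only in libraries of 14 h, 24 h and 42 h. Neither was called by edgeR (adjusted p = 0.0995 and 0.117). Either call was also lost without 14 h E, quiescent A or quiescent C, and that of DN19962_c0_g2 without 14 h C or quiescent D as well (adjusted p up to 0.071 and 0.083). These comparisons share the quiescent libraries, and those of consecutive stages share a stage each.

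**Figure D3:**
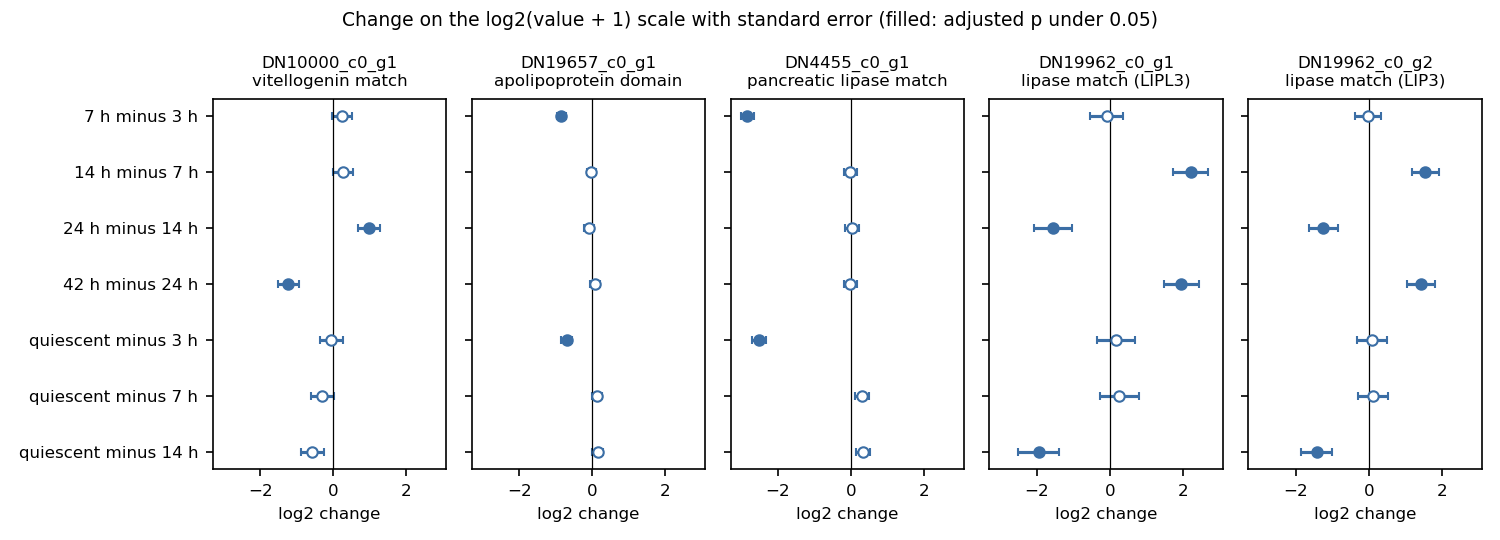
Change (x axis, log2(value + 1) scale, with standard error) of each gene in 7 comparisons (y axis, first group minus second); filled points have an adjusted p under 0.05 in limma. Of 35 points 14 are filled; DN4455_c0_g1 at -2.84 from 3 h to 7 h lies farthest from 0, and no point of quiescent eggs against 7 h is filled. The open point of DN10000_c0_g1 from 7 h to 14 h (0.27) turns to -0.55 under median-ratio rescaling.

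Across the 26 libraries the 5 genes fell into 3 patterns. As a description, Pearson's r of log2(value + 1) was 0.955 between DN19657_c0_g1 and DN4455_c0_g1 and 0.934 between DN19962_c0_g1 and DN19962_c0_g2, whereas DN10000_c0_g1 had r of -0.476 to 0.187 with the other genes. All points share libraries and scaling, and libraries of a stage are not independent. DN19962_c0_g1 and DN19962_c0_g2 may also share reads, so their r may not be that of 2 separate genes. Among the other 5196 tested genes, the pattern most like that of DN10000_c0_g1 was DN9378_c0_g1, which matched a beta-glucuronidase, a glycosidase (r = 0.970; mean 1.09 at 24 h and 0.240 at 3 h). It was followed by DN6694_c1_g1 and DN13617_c0_g1, which had no protein match (r = 0.967 and 0.965). DN4455_c0_g1 was most like DN7325_c0_g1, which matched a fruit fly trypsin, a protein-cutting enzyme (r = 0.996; mean 6.52 at 3 h and 0.290 at 7 h). DN16529_c0_g1 without a match (r = 0.993) and DN4817_c0_g1 came next, the latter with domains of the Kazal family of protease inhibitors (r = 0.993; mean 27.7 at 3 h and 0.735 at 7 h). DN19657_c0_g1 was most like DN27763_c0_g1 and DN19383_c0_g1 without a match (r = 0.976 and 0.974) and DN2010_c0_g1, which matched the ubiquitin ligase SIAH1 (r = 0.973; mean 2.29 at 3 h and 0.375 at 7 h).

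DN19962_c0_g1 was most like DN13586_c0_g1, which matched an alkaline phosphatase of the silkworm (r = 0.972; mean 0.915 at 14 h, 0.190 at 24 h and 1.21 at 42 h). DN9486_c0_g1, with a trypsin domain and a match to a beetle phenoloxidase-activating factor, a clip-domain protease (r = 0.971), and DN5519_c0_g1 without a match (r = 0.968) followed. DN19962_c0_g2 was most like DN24122_c0_g1, which matched innexin, the gap junction protein of invertebrates (r = 0.955; mean 0.900 at 14 h, 0.135 at 24 h and 1.72 at 42 h). DN23091_c0_g1 without a match (r = 0.951) and DN17443_c0_g1, a trypsin match (r = 0.945), came next.

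Other genes with names of yolk and lipid handling were gathered from the same table. A name does not show a role in lipid handling, and some genes with an apolipoprotein domain also matched proteins of other kinds. Of 11 other genes with an apolipoprotein domain, only 4 were tested. The mean peaked at 42 h in 6 of the 11, at 14 h in 3, at 24 h in 2 and at 3 h in 0. DN19657_c0_g1 itself was highest at 3 h. Without library 42 h D the mean of the 11 peaked at 42 h in 8, at 14 h in 1 and at 24 h in 2. Of 8 other lipases and lipid esterases, which were all too low to be tested, the mean peaked at 42 h in 4, at 14 h in 3 and at 3 h in 1, or at 42 h in 5 and at 14 h in 3 without 42 h D. The name search for this list caught only 1 of the 5 genes, although DN4455_c0_g1, DN19962_c0_g1 and DN19962_c0_g2 all matched lipases. Other lipases of the table may therefore have been missed. The summed level of the 8 genes was 0.560 to 0.735 at 3 h and 0.201 to 0.415 at 7 h. It was 1.09 to 3.45 at 14 h and 0.813 to 1.29 at 24 h. At 42 h it was 0.643 in library D and 2.80 to 5.55 in the others. Across all tested genes 65.4% were highest at 42 h, 12.3% at 3 h and 10.7% at 24 h; without 42 h D the 42 h share was 68.5%. These shares cover tested genes only, whereas 4 of the 11 and 0 of the 8 genes above were tested. On 11 genes, 0 at 3 h is not set apart from 12.3%.

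With the 5 genes set aside, the yolk and lipoprotein list held no vitellogenin match. Of its 12 tested genes, 4 carried an apolipoprotein domain and the others a lipocalin domain. At 42 h 6 of the 12 were higher than at 24 h, near the 44.9% of all tested genes, and 2 were lower, against 5.33%. The median log2 change was 0.97 against 0.66 over all tested genes. The lower ones were 3 under median-ratio rescaling and 4 under quantile normalization, beside 683 and 835 lower genes over the table. In 3 of the 12 the mean was highest at 24 h, as in DN10000_c0_g1. It went from 1.09 at 24 h to 0.3 at 42 h in DN3043_c2_g1 and from 1.67 to 0.533 in DN3468_c5_g1. Both carried an apolipoprotein domain, the latter beside a further domain, C1q. In DN13412_c0_g1, with a lipocalin domain, it went from 5.63 to 4.73, although its highest value, 7.48, was in library 42 h A. The 42 h mean of this gene without library D is not given here, so its peak at 24 h holds for all libraries only. DN12215_c0_g1, with an apolipoprotein domain and a signal peptide, rose from 0.451 to 9.75, or 12.2 without 42 h D (2.38 ± 0.48 on the log2 scale, limma adjusted p = 5.6e-04). DN5661_c0_g1, a match to apolipoprotein D, a lipocalin that carries small lipids, rose from 0.0736 at 7 h to 3.48 at 14 h and from 0.786 at 24 h to 10.3 at 42 h, or 12.7 without D. DN7866_c0_g1, a lipocalin-domain match to a fatty acid-binding protein, also belongs to the transport list; it rose from 0.814 at 24 h to 6.83 at 42 h, or 8.48 without D.

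Lipid binding, uptake and transport had 12 tested genes. At 42 h 8 of them were higher than at 24 h in limma, beside the same 44.9% of all tested genes. In edgeR 7 were higher, beside 1986 of the 5201 tested genes. The median log2 change was 1.15 in limma. DN21034_c0_g1 matched NPC2, which carries cholesterol out of lysosomes in mammals. It rose from 0.286 at 7 h to 9.28 at 14 h (2.91 ± 0.49). At 24 h it was at 1.76 (-1.97 ± 0.52, limma adjusted p = 0.0114), a fall that edgeR did not call (adjusted p = 0.118). At 42 h it was at 12.8 (2.12 ± 0.49), or 15.4 without D, and in quiescent eggs at 1.18. DN7833_c0_g1, a match to sterol carrier protein, went from 0.273 at 24 h to 4.01 at 42 h, or 5.00 without D.

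All 10 tested genes of phospholipid and sphingolipid turnover were higher at 42 h than at 24 h, beside 44.9% of all tested genes. Their median log2 change was 1.72 against 0.66 over all tested genes. Under median-ratio rescaling 9 of them were called, beside 1334 genes of the table called higher. When spread was taken from the 24 h and 42 h groups alone 2 were called, beside 177 of the table. DN7020_c0_g1, with a saposin domain of the kind that helps lysosomal enzymes reach sphingolipids, went from 0.931 to 87.6, or 109 without D (4.66 ± 0.80, limma adjusted p = 2.5e-04). The saposin matches DN6205_c0_g1 and DN6504_c0_g1 rose at 14 h by 3.09 ± 0.69 and 2.47 ± 0.64 and at 42 h by 3.57 ± 0.69 and 2.87 ± 0.64, the latter being 4.37 and 3.58 without D. Fatty acid synthesis and beta-oxidation had 2 and 3 tested genes, too few to set a share against the 44.9% of all tested genes. In each list 1 gene was higher at 42 h than at 24 h. These were DN161297_c0_g1, a match to the long-chain acyl-CoA ligase ACSL1, which activates fatty acids (0.1 to 1.45, or 1.81 without D), and DN14986_c0_g1, with a thiolase domain (0.118 to 1.91, or 2.37 without D).

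In library 42 h D the summed level was 4.25 for the yolk and lipoprotein list and 7.39 for the phospholipid list, against at least 51.9 and 62.6 in the other 42 h libraries. Without it, 9 of 12, 11 of 12 and 10 of 10 genes of the yolk and lipoprotein, transport and phospholipid lists were higher at 42 h. The share of all tested genes higher in that setting is not given here, so these counts stand without a background. Calls over all tested genes, in either direction, numbered 2614 on all libraries and up to 3575 with 1 library left out. The 44.9% given above therefore holds for all libraries only. When spread was taken from the 24 h and 42 h groups alone, limma called 0 genes of the first list and 0 of the transport list. Over the table it then called only 177 of the 5201 tested genes higher and 20 lower. At an unadjusted p under 0.05, 6 genes of the first list were then higher and 2 lower, and 8 of the transport list were higher. On all libraries edgeR called 7 higher and 2 lower in the first list and 7 higher in the transport list. Over the table it called 1986 higher and 159 lower. From 7 h to 14 h, 2 of 12, 2 of 12 and 5 of 10 genes of these 3 lists rose in limma, beside 21.1% of all tested genes, so that the first 2 shares were not above that of the table. The numbers were 7, 9 and 10 in edgeR, which also called 2220 genes of the table higher, against 1095 in limma. Without library 42 h D they were 6, 6 and 8, where 2404 tested genes were called in either direction, against 1224 with it. Under median-ratio rescaling 3 and 2 genes of the first 2 lists fell, beside 645 genes of the table. In quiescent eggs 1, 1 and 3 genes were lower than at 14 h, beside 11.9% of all tested genes. Without 42 h D they were 6, 4 and 7, where 2064 tested genes were called in either direction, against 881 with it. A replicate block left 0 genes of the yolk and lipoprotein list and 0 of the phospholipid list, with 377 lower genes over the table. For these 2 lists edgeR called 3 and 7, beside 806 lower genes over the table against 617 in limma. Limma without the block had 4 and 5 at an unadjusted p under 0.05.

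**Figure D4:**
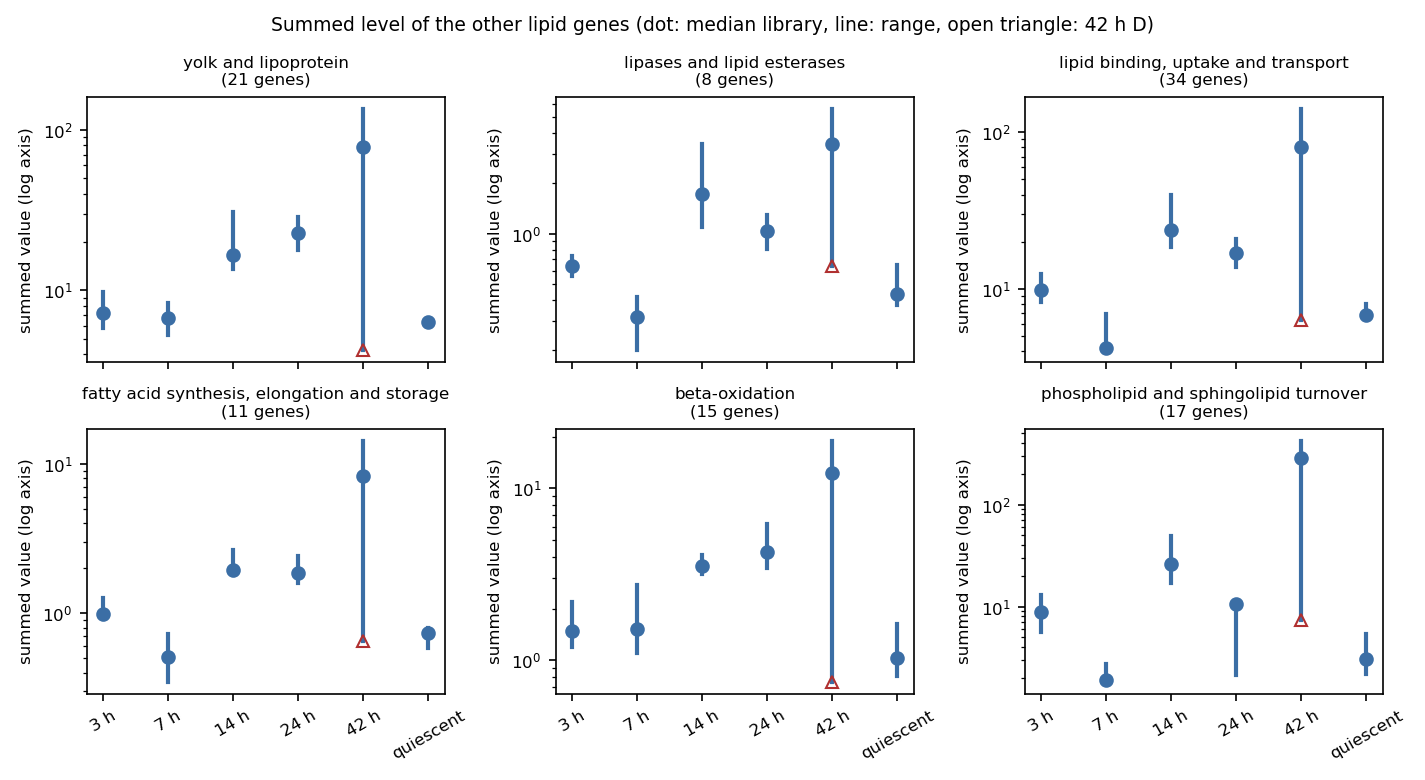
Summed deposited value (y axis, log scale) of 6 lists of other lipid genes in 6 groups (x axis); dots are the median library, lines the range over libraries and the open triangle library 42 h D. The medians of the yolk and lipoprotein list run from 6.37 in quiescent eggs to 78.6 at 42 h, and those of the phospholipid list from 1.92 at 7 h to 283 at 42 h.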

How the data were processed

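Per the submitters' processing notes, bcl2fastq and edgeR were used; aligner and counting tool were not given in the sources used here. Per the labels, the authors deposited a table of 9502 genes selected among subitaneous samples and one of 2777 genes selected between quiescent eggs and 7 h and 14 h eggs, at an alpha of 0.001 and a fold of 2. Both hold normalized signal values for all 26 libraries. DN19962_c0_g1 is in both with identical values, and the other 4 genes were read from the first. How the authors scaled libraries is not stated, and a call at one stage can move with that scaling. Within a library, values were whole multiples of 1 step (100% of values up to 2000 reads within 0.1 of a step), from which reads were recovered. No 2 libraries were identical.

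The filter kept genes that reached 1 in 3 or more libraries (5201, among them all 5 genes). They were fitted in limma 3.58.1 (R 4.3.3) as log2(value + 1) by group, with 1 spread for all 26 libraries and eBayes in its trended, robust form. Benjamini-Hochberg adjustment ran over all tested genes in each of 7 comparisons, all fitted in the first table. edgeR 4.0.16 (quasi-likelihood, on recovered reads with the authors' scaling), median-ratio rescaling, quantile normalization, a pseudocount of 0.1, no filter, the spread of 2 groups alone, a replicate block, a sheet-number term and leaving out each library were alternatives. The script was tested on simulated data. The genes and lists were chosen with earlier results of these data known. Lists were matched on identifiers, with the 5 genes and mismatches left out. The list for algal feed, the other organism the eggs could carry, held 2 genes, both chlorophyllase matches and too low to test, with summed levels of 0.0180 to 1.22. Named beside the 5 genes were the 3 tested genes with the highest r to each, and in each lipid list the 3 genes with the largest called change between consecutive stages. The tested genes of the yolk and lipoprotein list with their highest mean at 24 h were named as well.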

Additional observations from a re-analysis of the deposited data

Results flagged for a closer look

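In each group of 4 or 5 libraries the distance of the highest or lowest value from its nearest neighbour was set against the group's range (Dixon's criterion), over 25 combinations of gene and group; chance alone marks about 1 in 20. DN10000_c0_g1 stood at 2.388 in library 14 h E, while the other 14 h libraries lay between 1.674 and 1.745. DN19657_c0_g1 stood at 0.533 in library 42 h D, while the other 42 h libraries lay between 0.031 and 0.162. In that library DN4455_c0_g1 was also at its highest of the 42 h group (0.881), and DN10000_c0_g1, DN19962_c0_g1 and DN19962_c0_g2 were at their lowest (0.218, 0.587 and 0.370). Whether the state of that library bears on these values was not tested.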

How the results depend on the processing

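The falls of DN4455_c0_g1 and DN19657_c0_g1 from 3 h to 7 h, that of DN4455_c0_g1 in quiescent eggs against 3 h, and the rises of DN19962_c0_g1 and DN19962_c0_g2 from 7 h to 14 h kept direction and call under every alternative run. The other results below did not, and the cause was not tested. DN4455_c0_g1 and DN19657_c0_g1 had passed the filter through 3 h libraries alone, and DN19962_c0_g1 and DN19962_c0_g2 through none of 3 h or 7 h. Values are log2 changes with the adjusted p, later group or quiescent eggs minus the other, and counts of called genes stand beside 584, 1224, 647, 2614, 326, 15 and 881 for 7 h against 3 h, 14 h against 7 h, 24 h against 14 h, 42 h against 24 h, and quiescent eggs against 3 h, 7 h and 14 h. Between 3 and 92 reads stood behind each value of DN19657_c0_g1 and DN4455_c0_g1 outside the 3 h group, which limits what could be seen there.

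With edgeR, DN10000_c0_g1 from 14 h to 24 h was 1.36 (0.127), DN19657_c0_g1 in quiescent eggs against 3 h -1.83 (0.185) and DN4455_c0_g1 from 24 h to 42 h 0.02. DN19962_c0_g1 was -2.49 (0.283) from 14 h to 24 h, 3.11 (0.0705) from 24 h to 42 h and -3.64 (0.0995) in quiescent eggs against 14 h, and DN19962_c0_g2 was -2.39 (0.289), 2.91 (0.0779) and -3.29 (0.117). Counts were 2328 at 14 h against 7 h, 368 at 24 h against 14 h, and 133 and 176 for quiescent eggs against 3 h and 7 h. With median ratios, DN10000_c0_g1 was -0.55 (0.0104) from 7 h to 14 h and 0.07 in quiescent eggs against 14 h, and DN4455_c0_g1 was 0.07 from 24 h to 42 h and 0.73 (0.0451) in quiescent eggs against 14 h; counts were 1051 at 7 h, 1257 at 24 h and 71 for quiescent eggs against 7 h.

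With quantile normalization, DN10000_c0_g1 was 0.59 (0.0266) from 3 h to 7 h, -0.63 (0.0154) from 7 h to 14 h, and 0.03 and 0.07 in quiescent eggs against 3 h and 14 h. DN19657_c0_g1 was -0.46 (0.0282) and DN4455_c0_g1 -0.59 (0.026) from 7 h to 14 h, DN4455_c0_g1 0.77 (0.0222) in quiescent eggs against 14 h, and DN19962_c0_g2 0.06 from 3 h to 7 h and 0.57 (0.105) from 24 h to 42 h; counts were 1082 at 7 h, 1450 at 24 h and 64 for quiescent eggs against 7 h. The split of called genes moved with scaling: higher and lower were 5 and 579 at 7 h against 3 h on the deposited scale, 189 and 862 with median ratios and 555 and 527 with quantiles. At 14 h they were 1095 and 129, 1101 and 645, and 881 and 862; at 24 h 147 and 500, 507 and 750, and 805 and 645; at 42 h 2337 and 277, 1334 and 683, and 1059 and 835. In quiescent eggs they were 23 and 303, 66 and 349, and 63 and 229 against 3 h; 15 and 0, 38 and 33, and 19 and 45 against 7 h; and 264 and 617, 506 and 473, and 502 and 430 against 14 h.

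Without the filter, DN19962_c0_g1 from 14 h to 24 h was -1.56 (0.0527), and counts were 1859 at 14 h, 1076 at 24 h, 5371 at 42 h and 8 for quiescent eggs against 7 h. With a pseudocount of 0.1, DN10000_c0_g1 was 1.28 (0.114) and DN19962_c0_g1 -2.34 (0.0924) from 14 h to 24 h, and counts were 1954 at 14 h and 35 for quiescent eggs against 7 h. With a term for the sheet-number sets, DN19962_c0_g1 from 14 h to 24 h was -1.56 (0.0543). With the spread of the 2 groups alone, DN10000_c0_g1 was -1.23 (0.139), DN19962_c0_g1 1.96 (0.0605) and DN19962_c0_g2 1.43 (0.0744) from 24 h to 42 h, and DN10000_c0_g1 -0.57 (0.025) and DN4455_c0_g1 0.33 (0.0373) in quiescent eggs against 14 h; counts were 1775, 3418, 1456, 197, 710, 730 and 2739 in the order above.

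Same-lettered libraries deviated together weakly in the median but unevenly (r of -0.466 to 0.501 over 56 pairs, above 0.1 in 24). Closest to their own letter were 9 of 26 libraries. The median r was 0.0759 for these pairs and -0.0384 for other pairs. It was 0.0752 within a sheet-number set and -0.0889 between sets. The letters were not taken to pair samples, but a structure of this kind was not excluded. With a replicate block, DN4455_c0_g1 was 0.01 from 7 h to 14 h and -0.02 from 14 h to 24 h. DN19962_c0_g1 was -1.28 (0.106) from 14 h to 24 h and -1.53 (0.083) in quiescent eggs against 14 h, DN19962_c0_g2 was -1.09 (0.0814) and -1.28 (0.0691), and the count for quiescent eggs against 14 h was 500.

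Leaving out each library in turn, DN10000_c0_g1 from 14 h to 24 h was 0.89 to 1.17 (p up to 0.0958), DN19962_c0_g1 -1.80 to -1.13 (p up to 0.189) and DN19962_c0_g2 -1.49 to -1.02 (p up to 0.151). In quiescent eggs against 14 h DN19962_c0_g1 was -2.19 to -1.52 (p up to 0.071) and DN19962_c0_g2 -1.67 to -1.20 (p up to 0.083). Uncalled changes near 0 that crossed it were DN10000_c0_g1 in quiescent eggs against 3 h (-0.08 to 0.00), DN19657_c0_g1 at 14 h (-0.10 to 0.02) and 42 h (-0.02 to 0.13), DN4455_c0_g1 at 14 h (-0.06 to 0.00), 24 h (-0.01 to 0.07) and 42 h (-0.15 to 0.06), and at 7 h DN19962_c0_g1 (-0.19 to 0.03) and DN19962_c0_g2 (-0.14 to 0.04). Counts ran from 966 to 2404 at 14 h and from 454 to 1507 at 24 h, both highest without 42 h D, and from 260 to 516, 2 to 220 and 476 to 2064 for quiescent eggs against 3 h, 7 h and 14 h.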
